A study of Mus musculus with 4 samples.

Results

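The genes described here are 5 members of the Ly6/uPAR family that were detected in sorted basal epidermal cells of the mouse, *Ly6a*, *Ly6d*, *Ly6e*, *Ly6g6c* and *Lypd3*. They were chosen by name, as 5 of the 24378 gene rows that each of the 4 count tables holds, and were read in wells with at least 2000 unique molecular identifiers (UMIs, one per captured RNA molecule) on genes. Single cells came from the dorsal interfollicular epidermis of female *Ivl-CreERT2*/*R26-tdTomato* mice at postnatal day 57, which had been given tamoxifen intraperitoneally at 10 µg per g of body weight, 2 days before. In these mice the Cre recombinase is driven by the promoter of Involucrin (*Ivl*), a gene of keratinocyte differentiation, so that tamoxifen marks cells with an active promoter, and their descendants, with the red protein tdTomato. Marked (Tom+) and unmarked (Tom-) living cells were both gated as positive for ITGA6 (CD49f) and SCA1, the protein of *Ly6a*, and negative for CD34, and each of the 4 libraries was made on a Fluidigm C1 chip. The study's methods give a different dose of tamoxifen and the age in weeks.

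Of 384 wells, 161 passed the minimum, with 35 and 58 cells in the Tom+ libraries of runs 1 and 2 and 20 and 48 cells in the Tom- libraries. These cells held 157281, 305407, 81630 and 184578 UMIs on genes. A run is a tag that a Tom+ and a Tom- library share in the labels, which do not say whether it stands for a mouse. By the study's description the sorted cells came from a pair of mice, so that some of the libraries share an animal, and p-values measure the spread between these libraries only and not that between animals. The tdTomato transcript had a UMI in 45.7% and 50.0% of cells of the marked libraries, against 0% and 6.25% in the unmarked ones. Basal keratinocyte markers were present in all 4 libraries (the 6 listed genes summed to between 27969 and 43667 CPM, UMIs scaled to 1000000 UMIs of the library). The lists of bulge, endothelial and melanocyte markers were low beside them. Of 4 markers in each of these lists 2 were detected, with sums of 19.1 to 168 CPM for bulge and of at most 12.7 and 9.82 CPM for endothelial and melanocyte markers, while *Cd34*, *Lgr5*, *Cdh5*, *Kdr*, *Dct* and *Mlana* were at 0. Sebaceous markers summed to 86.7 to 235 CPM, T cell markers to 0 to 177 and Langerhans cell markers to 10.8 to 110. Across the libraries, 16 cells carried at least 3 markers of another cell type, 11 of them of the infundibulum, the upper part of the hair follicle.

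Proteins of the Ly6/uPAR family are small and rich in cysteine, fold into a domain of finger-like loops held by disulphide bonds, and mostly sit on the cell surface through a glycolipid anchor. Several of them mark steps of differentiation in blood and epithelia. In the epidermis, basal keratinocytes attached to the basement membrane give rise to spinous cells, which switch from *Krt5* and *Krt14* to *Krt1* and *Krt10*.

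The members lie at 3 loci. By the GENCODE annotation of GRCm38, the build named in the submitters' processing notes, *Ly6d* (chr15:74762056-74763620, minus strand), *Ly6e* (chr15:74955051-74959905, plus strand) and *Ly6a* (chr15:74994877-74998031, minus strand) lie within 236 kb of chromosome 15, a stretch with 7 genes of the family. *Ly6g6c* (chr17:35065388-35070050, plus strand) lies in the major histocompatibility complex and *Lypd3* (chr7:24636550-24641118, plus strand) stands apart from both. *Ly6a* has close paralogs in *Ly6c1*, *Ly6c2* and *Ly6i*, which held 83, 11 and 1 UMIs beside its 100, and since the treatment of reads shared between copies is not given in the sources used here, its counts are uncertain to that extent. The annotation places the antisense gene *Gm26550* over *Lypd3* and part of *Mpig6b* over *Ly6g6c* on the opposite strand. Rows under 2 older names of *Mpig6b* held 0 and 4 UMIs in all kept cells.

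*Ly6g6c* and *Lypd3* are the members that rose together in the comparisons given further on, and their upstream sequences are shown for that reason, from RefSeq promoters on GRCm38.p6, plus strand, 5′ to 3′. Each covers bases 250 to 21 before the annotated start, chr17:35067075-35067304 and chr7:24636320-24636549, and capitals mark motif matches.
Ly6g6c: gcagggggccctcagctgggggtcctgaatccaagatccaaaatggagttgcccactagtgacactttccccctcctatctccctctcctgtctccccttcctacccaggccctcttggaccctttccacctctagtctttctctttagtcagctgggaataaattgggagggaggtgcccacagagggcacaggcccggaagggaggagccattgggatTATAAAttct
Lypd3: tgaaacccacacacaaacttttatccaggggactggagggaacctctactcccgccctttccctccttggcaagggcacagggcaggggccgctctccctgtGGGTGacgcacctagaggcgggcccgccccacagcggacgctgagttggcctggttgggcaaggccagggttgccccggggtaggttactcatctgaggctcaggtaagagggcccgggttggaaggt
Both strands were searched for the AP-1 motif TGANTCA, the core promoter motif TATAAA and the KLF family motif CACCC, whose matches do not overlap in these windows. The *Ly6g6c* stretch held 1 match, to the core promoter motif, that starts 30 bases before the annotated start, and the *Lypd3* stretch held 1 match, to the KLF motif on the other strand, 148 bases before the start. The core promoter motif was present in 11.8% of the 32851 promoter windows of that length, the KLF motif in 49.2% and the AP-1 motif in 6.34%. The *Ly6g6c* stretch lies within a longer annotated transcript of the gene that starts further upstream, and part of the *Lypd3* stretch lies in an exon of *Gm26550*. The same table holds no entry for the other members.

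The first comparison asked how the members differed between cells sorted as marked through the *Ivl* promoter and cells sorted as unmarked. Lack of the mark does not show that the promoter was inactive. *Ly6g6c* and *Lypd3* were higher in Tom+ libraries, by log2 fold changes of 3.67 ± 0.40 and 1.95 ± 0.37 (SE), and no member passed the test as lower. UMIs were summed over the cells of each library and tested by the quasi-likelihood F test of edgeR, p-values being adjusted over 3070 genes after Benjamini and Hochberg (threshold 0.05). Of the 5 members, 2 passed, both higher in Tom+ (4 had an unadjusted p under 0.05, and DESeq2 also called 2), against a background of 1.24% of the tested genes called and 0.847% called as higher. The median log2 fold change was 0.75 over the members and -0.01 over all tested genes. The former is the value of *Ly6d*, which did not pass, and *Ly6a* and *Ly6e* had a negative sign.

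*Ly6g6c*, a glycolipid-anchored member encoded in the major histocompatibility complex, had 763 and 868 CPM in the Tom+ libraries of runs 1 and 2 and 85.8 and 48.8 in the Tom- libraries. These levels rest on 120, 265, 7 and 9 UMIs. Both Tom+ libraries were far above both Tom- libraries, with an adjusted p of 7.59e-06 (edgeR). After every cell had been thinned to 2000 UMIs, a UMI of it was kept by 40.0% and 56.9% of Tom+ against 5.0% and 6.25% of Tom- cells, a difference of 42.8 percentage points. Without thinning the shares were 62.9%, 65.5%, 15% and 8.33%. The exact two-sided permutation p of the difference in thinned shares was 0.333, which is the smallest that 2 libraries against 2 allow.

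*Lypd3*, also known as C4.4A, is a relative of the urokinase receptor known from suprabasal layers of stratified epithelia. Its level was 470.5 and 458 CPM in the Tom+ libraries and 147 and 97.5 in the Tom- libraries, again without overlap (adjusted p = 0.00675, edgeR). The call was lost when only cells with at least 5000 UMIs were kept (log2 fold change 1.82, adjusted p = 0.143) and without the Tom- library of run 2 (1.72, adjusted p = 0.0649). A UMI of *Lypd3* was kept after thinning by 42.9% and 43.1% of Tom+ cells and by 20.0% and 12.5% of Tom- cells.

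*Ly6d*, known as a surface marker of keratinocytes of stratified epithelia, was the most widely detected member, with a UMI in 152 of the 161 cells. It had 3433 and 3631 CPM in the Tom+ libraries and 1813 and 2232 in the Tom- libraries. The groups did not overlap, but the log2 fold change of 0.75 ± 0.24 did not pass over all genes (adjusted p = 0.161, edgeR). It passed with the run as a block (0.77, adjusted p = 0.000490), in a fit with 1 residual degree of freedom whose p rests on the spread shared across genes. Its thinned shares were 97.1%, 93.1%, 95.0% and 83.3% in the Tom+ and then the Tom- libraries, so that the groups overlapped in the share of cells but not in the level.

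*Ly6a*, which encodes SCA1, a surface marker of stem and progenitor cells in many mouse tissues and here a marker of the sort itself, had the opposite sign. Its level was 127 and 81.9 CPM in the Tom+ libraries and 282 and 173 in the Tom- libraries, from 20, 25, 23 and 32 UMIs. Each Tom- library was above each Tom+ library, whereas the counting intervals of neighbours in this order overlapped (95% Poisson intervals of 53.0 to 121, 77.7 to 196, 119 to 245 and 179 to 423 from lowest to highest). The log2 fold change was -1.14 ± 0.42, with an adjusted p of 0.268 (edgeR). In thinned cells the shares with a UMI were 17.1% and 15.5% against 30.0% and 20.8%. As every cell had been gated on the SCA1 protein, these values describe RNA within SCA1-positive cells.

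*Ly6e*, an interferon-induced member also called SCA2, was near the same level in all libraries, at 139.9 and 187 CPM in Tom+ and 196 and 206 in Tom-. Its log2 fold change was -0.32 ± 0.37 (adjusted p = 0.942, edgeR), and the intervals of all 4 libraries overlapped. The level did not overlap between the groups for all 5 members, which held for 38.9% of the tested genes, so that separation of 2 libraries from 2 was common in these data.

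**Figure D1:**
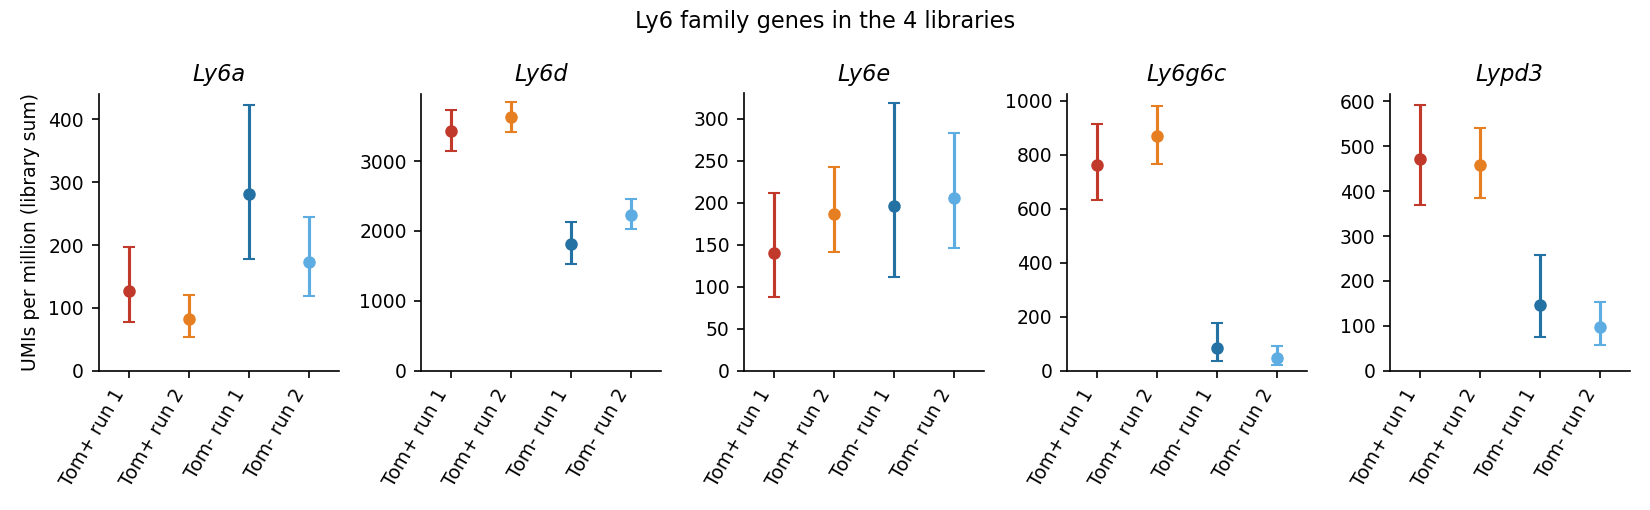
CPM in each of the 4 libraries (points) for the 5 members, with 95% Poisson intervals that cover counting error only; each panel has its own axis from 0. *Ly6g6c* stands at 763 and 868 in the Tom+ libraries against 85.8 and 48.8 in the Tom- libraries, and *Ly6a* at 127 and 81.9 against 282 and 173.

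The second comparison asked how the members differed with the start of differentiation inside each library. Cells with at least 6 *Krt10* UMIs among 2000 thinned ones were taken as *Krt10*-positive (69 cells, 62 of them Tom+) and the others as *Krt10*-negative (92 cells), with 20 cells at 4 to 7 UMIs, close to that limit. Their median depths were 4421 and 3552 UMIs. UMIs were summed for both classes in each library and tested with the library as a block, over 1179 genes without *Krt10*. *Ly6g6c* and *Lypd3* were again the 2 members that passed, both higher in *Krt10*-positive cells, beside 8.91% of the tested genes called, 4.66% as higher and 4.24% as lower. The median log2 fold change was 0.52 over the 5 members, again the value of *Ly6d*, and -0.01 over all genes. Of 6 tested differentiation genes (*Krt10* left out), 6 were higher, and of 6 tested basal genes 3 were lower.

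*Ly6g6c* rose with *Krt10* by a log2 fold change of 3.67 ± 0.40 (adjusted p = 8.92e-07, edgeR). In *Krt10*-positive cells it had 1125 and 1170.4 CPM in the Tom+ libraries and 357 and 442 in the Tom- libraries. The Tom- values rest on only 3 and 4 cells. In *Krt10*-negative cells the values were 38.2, 173, 15.4 and 11.9 in the same order. The positive class was the higher one in every library, and its 69 cells held 94.8% of the 401 UMIs of the gene. The thinned share of cells with a UMI was higher by 56.0, 36.9, 33.3 and 47.7 percentage points, a mean of 43.5 ± 10.3 (SD, n = 4 libraries, exact two-sided permutation p = 0.125, the smallest that 4 signs allow, and taken over libraries that share animals). Counting only cells with at least 2 UMIs of the gene, the differences were 44.0, 38.5, 0 and -2.27 points (mean 20.1 ± 24.6, SD, n = 4 libraries, exact permutation p = 0.5), so that they were seen in the Tom+ libraries and not in the few *Krt10*-positive cells of the Tom- libraries.

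Few *Krt10*-negative cells held *Ly6g6c*. In Tom+ run 1 no thinned UMI of *Ly6g6c* was found in the 10 *Krt10*-negative cells, and in Tom+ run 2 7 of 21 such cells had one, 6 of them among the 19 cells with 1 to 5 *Krt10* UMIs. In the Tom- libraries it was 0 of 17 and 1 of 44. A count of 0 allows a share of up to 30.0% of the 10 cells and 17.6% of the 17 cells (3 counts of the total, for counting error only), and at full depth 2 of these 10 cells and 1 of the 17 had a UMI. A difference between the runs was not tested.

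*Lypd3* rose with *Krt10* by 2.07 ± 0.41 (adjusted p = 0.00129, edgeR). *Krt10*-positive cells had 639 and 569 CPM of it in the Tom+ libraries and 178 and 757 in the Tom- libraries, where the classes of 3 and 4 cells gave 3 and 12 UMIs, 9 of the 12 from a single cell. *Krt10*-negative cells had 134 and 205 in Tom+ and 139 and 35.6 in Tom-. All 4 libraries had the same direction, although in Tom- run 1 the intervals overlapped (36.8 to 521 and 63.5 to 264). The call was lost without Tom+ run 1 (1.99, adjusted p = 0.0809), with cells from 1000 UMIs (1.17, adjusted p = 0.205), with a limit of 1 *Krt10* UMI (1.06, adjusted p = 0.483), and also when only the seed of the thinning was changed (seed 3, 1.53, adjusted p = 0.0735). Here 83.2% of the 244 UMIs of the gene were in *Krt10*-positive cells.

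*Ly6d* was present in both classes. It stood at 4042 and 3981 CPM in *Krt10*-positive and 2215 and 2827 in *Krt10*-negative cells of the Tom+ libraries. In the Tom- libraries it was at 1427 and 3974 against 1913 and 2068, so that Tom- run 1 went the other way. The log2 fold change of 0.52 ± 0.19 did not pass (adjusted p = 0.103, edgeR) but did so without Tom- run 1 (0.66, adjusted p = 0.0372), and it was 0.02 with a limit of 15 *Krt10* UMIs. Over all cells its level was 1671 with no *Krt10* UMI, 2849 with 1 to 5 and 3876 with 6 or more. These classes are pooled over the libraries, and 6 of 51, 25 of 41 and 62 of 69 of their cells were Tom+. The pooled values therefore mix the *Krt10* class with the sort.

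*Ly6a* was lower in the *Krt10*-positive class in every library, by amounts that differed widely. Its level was 47.7 CPM in positive and 286 in negative cells of Tom+ run 1, but 79.9 and 86.3 in Tom+ run 2. The Tom- libraries had 238 and 293 in run 1, and 0 and 189.7 in run 2, where the positive class is 4 cells, so that a share of cells of up to 75.0% is allowed. The log2 fold change was -1.19 ± 0.56 with an adjusted p of 0.256 (edgeR), and the thinned share of cells differed by -46.0, 1.93, -35.3 and -22.7 percentage points (mean -25.5 ± 20.6, SD, n = 4 libraries, exact two-sided permutation p = 0.25). With at least 2 UMIs of the gene the mean difference was -5.03 ± 7.85 points (SD, n = 4 libraries). All 5 UMIs in the positive cells of Tom+ run 1 came from 1 cell.

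*Ly6e* was also lower in the positive class of every library, at 105 and 165 CPM against 210.0 and 237 in Tom+, and at 119 and 0 against 216 and 225 in Tom-. The log2 fold change of -0.94 ± 0.46 did not pass (adjusted p = 0.279, edgeR). A level that was lower in 4 of 4 libraries was found for 14.1% of the tested genes, and one that was higher in 4 of 4 for 14.3%.

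**Figure D2:**
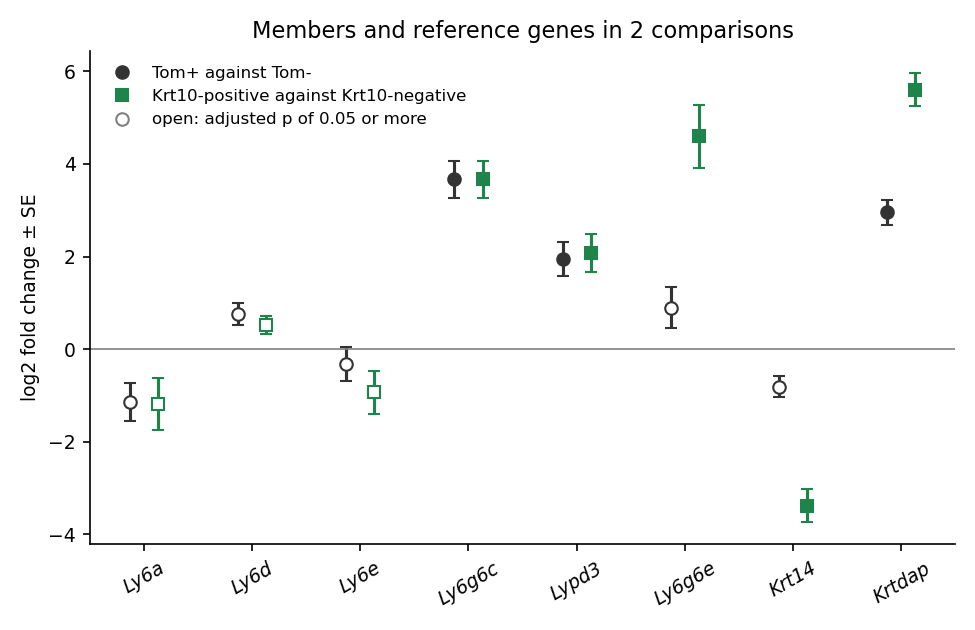
Log2 fold changes with SE (bars) of the members, of *Ly6g6e* and of the reference genes *Krt14* and *Krtdap*, for Tom+ against Tom- library sums (circles) and for *Krt10*-positive against *Krt10*-negative cells within library (squares); filled symbols have an edgeR adjusted p under 0.05. *Ly6g6c* and *Lypd3* are above 0 in both comparisons, and *Ly6a* is at -1.14 and -1.19 without passing either test.

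How the members differed between Tom+ and Tom- cells of the *Krt10*-negative class was asked among its 92 cells. This class does not hold *Krt10* constant. Of its Tom+ cells, 25 of 31 had 1 to 5 *Krt10* UMIs, against 9 of 17 and 7 of 44 in the Tom- libraries. A difference apart from *Krt10* can therefore not be read from it. Of the 5 members 4 had enough UMIs to be tested and 0 passed, beside 0.231% of 1296 genes called (3 genes, *Krt1*, *Krtdap* and *Krt10*). By edgeR 0 of them had an unadjusted p under 0.05, and DESeq2 called 0, with 0 at an unadjusted p under 0.05. *Lypd3* had a log2 fold change of 1.17 ± 0.72, *Ly6d* of 0.29 ± 0.25, *Ly6a* of -0.50 ± 0.53 and *Ly6e* of -0.03 ± 0.46. *Ly6g6c* was left out by the filter on low counts, with 18 UMIs in the 31 negative Tom+ cells and 3 in the 61 negative Tom- cells. The effect of *Krt10* was not found to differ between Tom+ and Tom- libraries for any of the 5 members (interaction log2 values of -1.36 ± 1.01 for *Ly6g6c*, -0.79 ± 0.92 for *Lypd3* and 0.46 ± 0.38 for *Ly6d*, 0 at an unadjusted p under 0.05, beside 0.170% of genes called). Since 62 of the 69 *Krt10*-positive cells were Tom+, the sort and the *Krt10* class largely moved together in the library sums.

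**Figure D3:**
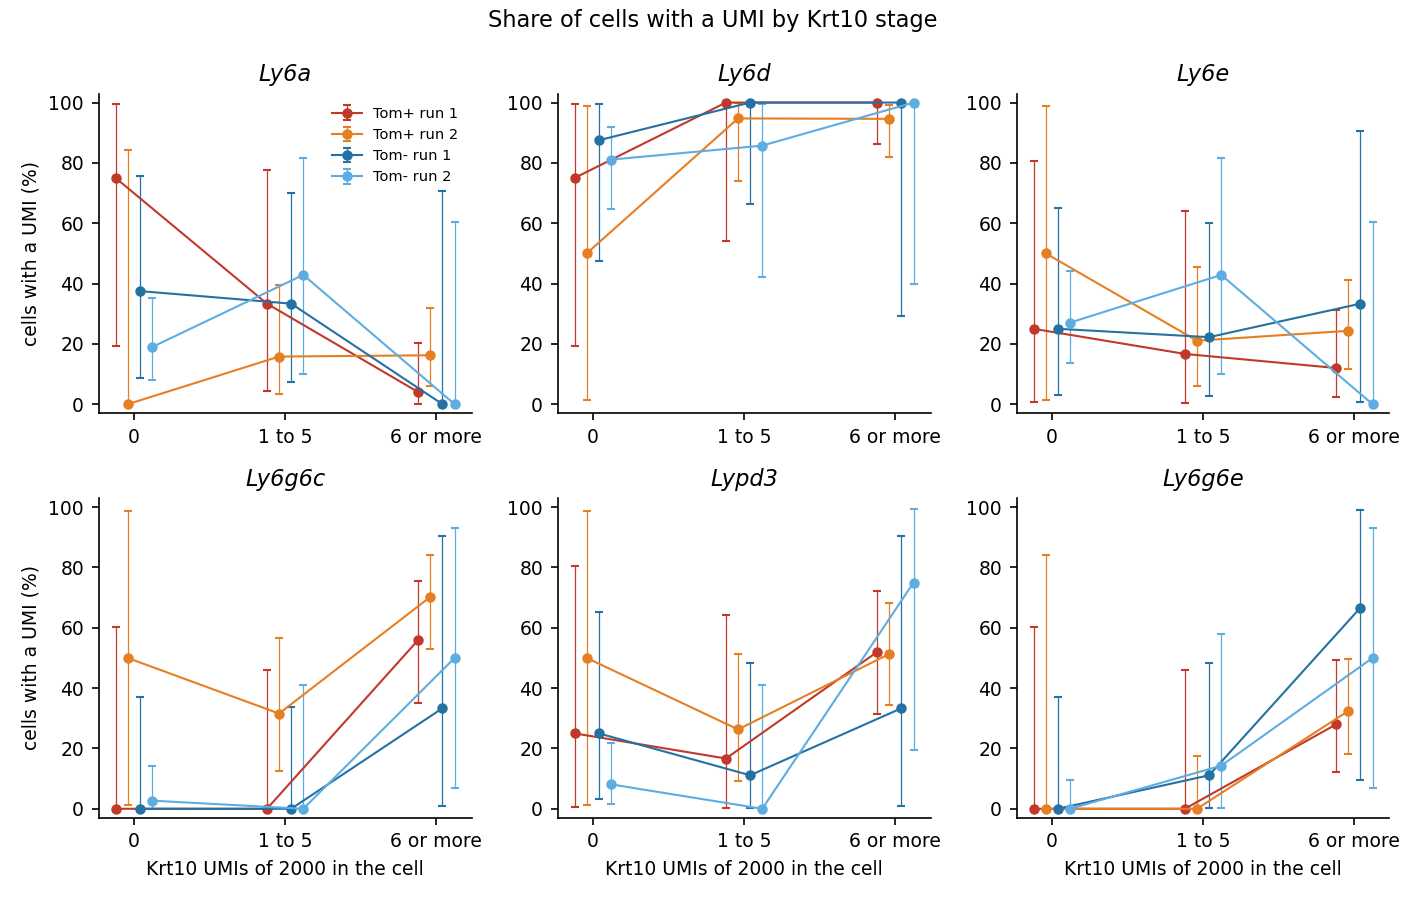
Share of cells with a UMI of each member and of *Ly6g6e*, after thinning to 2000 UMIs, in cells with 0, 1 to 5 or at least 6 *Krt10* UMIs, with exact 95% binomial intervals and 1 colour for each library. *Ly6g6c* reaches 56.0% and 70.3% in the last class of the Tom+ libraries, and *Ly6a* is at 4.0% and 16.2% there and at 0% in the same class of the Tom- libraries, which hold 3 and 4 such cells.

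A second scale, which does not rest on *Krt10* alone, counted how many of 6 differentiation genes (*Krt10*, *Krt1*, *Krtdap*, *Mt4*, *Ptgs1* and *Sbsn*) had a thinned UMI in a cell. With 0, 1 to 2, 3 to 4 and 5 to 6 such genes (33, 39, 39 and 50 cells), *Ly6g6c* was at 26.2, 38.9, 326 and 1252 CPM. *Lypd3* was at 61.2, 122, 308 and 609. *Ly6d* was at 1607, 2386, 2882 and 4158. In these pooled sums each of the 3 genes was higher in every further class, but the 33 cells of the first class were all Tom-. Within Tom- run 1 *Lypd3* was at 270.0, 74.5, 88.1 and 257 CPM and *Ly6d* at 855, 2458, 1587 and 1543, and within Tom- run 2 *Ly6d* was at 4382 and 3312 in the last classes, which hold 3 cells or fewer in these libraries. In the Tom+ libraries *Ly6g6c* was at 38.8, 293 and 1441 in run 1 and at 161, 374 and 1231 in run 2 from the second class on.

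*Ly6a* had 253, 178, 193 and 26.0 CPM in the same classes, so that it was at a like level up to 4 differentiation genes and low in the last class. Its 50 cells with 5 to 6 genes held 7 *Ly6a* UMIs, all of them from Tom+ run 2, and 0 were found in the 15 such cells of Tom+ run 1. *Ly6e* had 227, 250.3, 115 and 159.8 and showed no such order. These classes are pooled over the libraries, and the last holds mostly Tom+ cells, so the values are a description.

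**Figure D4:**
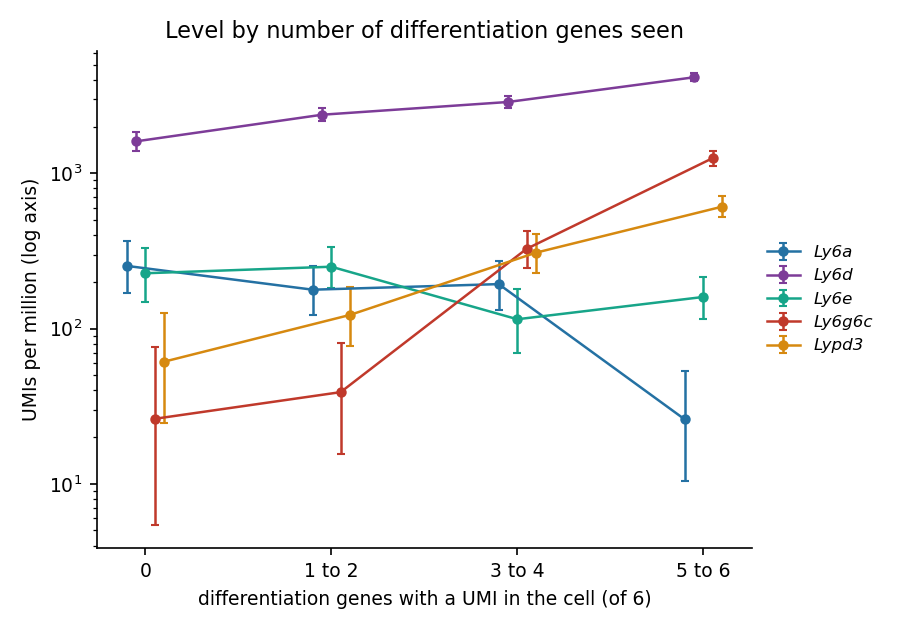
CPM (log axis) of the 5 members in cells with 0, 1 to 2, 3 to 4 and 5 to 6 of 6 differentiation genes detected, pooled over the 4 libraries, with 95% Poisson intervals. *Ly6g6c* goes from 26.2 to 1252 and *Ly6a* from 253 to 26.0.

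An order of cells by diffusion pseudotime was built without the family, the 6 differentiation genes, *Krt14*, *Krt5*, *Itga6*, *Col17a1*, *Ivl*, *Lor* and cell cycle genes. Started from the cell with the most *Krt14*, this order followed differentiation less closely. Between its earlier and later part, the mean level (ln of thinned UMIs plus 1) of *Krt14* differed by -0.75 and that of *Krt10* by 0.50 (means of 4 libraries). *Ly6g6c* differed by 0.19 ± 0.17 (SD, n = 4 libraries) and was higher in the later part in every library, at 0.37, 0.30, 0.09 and 0.01. *Lypd3* differed by 0.10 ± 0.21, *Ly6a* by 0.04 ± 0.11, *Ly6e* by -0.06 ± 0.10 and *Ly6d* by -0.13 ± 0.45, all smaller than the spread between libraries. Along the first principal component, turned so that *Krt14* was high at its start and where *Krt14* differed by -1.70, the values were 0.41 ± 0.36 for *Ly6g6c*, 0.25 ± 0.10 for *Lypd3*, 0.42 ± 0.42 for *Ly6d*, -0.20 ± 0.13 for *Ly6a* and -0.16 ± 0.14 for *Ly6e*. Without Tom+ run 1 the diffusion order turned around, with *Krt14* higher in the later part by 0.50 and *Ly6g6c* at -0.10. With all libraries kept it also turned with the seed of the thinning. Over 10 other seeds *Krt14* ran from -1.27 to 1.04, *Krt10* from -0.68 to 0.83 and *Ly6g6c* from -0.27 to 0.33. No course of a member is therefore read from this order.

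In single cells, *Ly6a* and *Ly6g6c* were counted together and apart. Of 161 thinned cells, 27 had a UMI of *Ly6a* only, 47 of *Ly6g6c* only and 4 of both, and all 4 were in Tom+ run 2. A UMI of *Ly6g6c* was found in 12.9% of the cells with *Ly6a* and in 36.2% of the others, over libraries that differ widely in *Ly6g6c*. Within Tom+ run 2 the shares were 44.4% and 59.2%, and within Tom+ run 1 they were 0 of 6 cells with *Ly6a* and 48.3% of the others. At full depth 10 cells held both, of which 6 were *Krt10*-positive, 3 had 1 to 5 *Krt10* UMIs and 1 had none. *Ly6a* and *Lypd3* met in 6 thinned cells, at least 1 in each library, with *Lypd3* in 19.4% of cells with *Ly6a* and 33.8% of the others. By library these shares were 16.7% and 48.3% in Tom+ run 1 and 33.3% and 44.9% in Tom+ run 2. They were 16.7% and 21.4% in Tom- run 1 and 10.0% and 13.2% in Tom- run 2. At full depth both Tom- libraries went the other way (44.4% and 36.4%, 26.7% and 18.2%), while both Tom+ libraries kept the direction.

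*Ly6g6c* and *Lypd3* were seen together more often. Both had a thinned UMI in 26 cells, of which the Tom+ libraries held 7 and 17 and the Tom- libraries 0 and 2 (runs 1 and 2), and *Lypd3* was present in 51.0% of cells with *Ly6g6c* and in 21.8% of the others. Within the Tom+ libraries alone the shares were nearer, at 50.0% and 38.1% in run 1 and 51.5% and 32.0% in run 2. Cells in these counts share their library and depth, and no test was made.

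The genes with the pattern most like each member were sought by Pearson's r of log2 CPM over 11 sums of cells, by library and *Krt10* step, among 1033 genes. These sums share libraries, and their cell numbers differ, so r is given as a description. *Ly6g6c* was closest to *Sbsn* (r = 0.985), *Krtdap* (0.945) and *Anxa1* (0.898), of which the first pair are secreted products of differentiating keratinocytes. *Lypd3* was closest to *Ly6g6c* (0.864), then to *Lgals3* (0.841) and *Cebpa* (0.839). *Ly6a* was closest to *Cav1* (0.931), *Itgb4* (0.920), an integrin of the basal attachment, and *Cxcl14* (0.901). *Ly6e* was closest to *Ptp4a2* (0.917), *Krt14* (0.902) and *Krt17* (0.887), and *Ly6d* to *Clca5* (0.891), *Dapl1* (0.850) and *Gsn* (0.821). Between members, *Ly6a* had r of -0.72 with *Ly6d*, -0.71 with *Lypd3*, -0.70 with *Ly6g6c* and 0.77 with *Ly6e*.

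Of 37 other genes of the family that were looked for, 30 have a row in the tables, 18 of these had no UMI and 9 had 1 to 19. The 3 with at least 20 UMIs were *Ly6g6e*, *Ly6c1* and *Cd59a*. *Ly6g6e*, a neighbour of *Ly6g6c* at a distance of 6852 bases on the same strand (*Ly6g6d*, which overlaps it on the other, had 0 UMIs), had 98 of its 104 UMIs in *Krt10*-positive cells. In the Tom+ libraries its level was 238 and 263 CPM in *Krt10*-positive cells, and no UMI was found in the 31 *Krt10*-negative cells, which makes it at least 12.3-fold higher against a floor of 3 counts over that group. In the Tom- libraries it was at 357 and 694 in positive and 61.7 and 11.9 in negative cells. It rose with *Krt10* in the test over all 4 libraries (log2 fold change 4.60 ± 0.68, adjusted p = 4.54e-05, edgeR), and this call was lost with a limit of 15 *Krt10* UMIs (1.63, adjusted p = 0.0553). Between Tom+ and Tom- libraries *Ly6g6e* was at 159 and 183 against 123 and 70.4 (0.90 ± 0.44, adjusted p = 0.523, edgeR).

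*Ly6c1*, a paralog of *Ly6a* known from monocytes and endothelium, was at 102 and 78.6 CPM in Tom+ and 110.3 and 184 in Tom- libraries (log2 fold change -0.85 ± 0.44, adjusted p = 0.576, edgeR). *Cd59a*, an inhibitor of the complement membrane attack complex, was at 102 and 124 against 159 and 81.3 (0.01 ± 0.44, adjusted p = 0.999, edgeR), with overlapping groups.

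Cells with markers of the infundibulum held more *Ly6g6c*, *Lypd3* and *Ly6d* than the others. Of the 16 cells with markers of another type, 11 were *Krt10*-positive Tom+ cells (3 and 8 in runs 1 and 2), the class in which *Ly6g6c* and *Lypd3* were high. The 6 listed markers, all of them detected, summed to 502 and 1683 CPM in the Tom+ libraries and 919 and 861 in the Tom- libraries. The 11 cells with at least 3 of them had 1619.7 CPM of *Ly6g6c* against 436 in all other cells, 583 of *Lypd3* against 308 and 4504 of *Ly6d* against 2873. Over all 69 *Krt10*-positive cells the levels were 1085, 579 and 3876, so that *Lypd3* was near the level of that class. The 3 cells with T cell markers had 733, 794 and 5129, and the 2 with Langerhans cell markers 0, 339 and 678. Of the 11 cells with infundibulum markers, 10 had a UMI of *Ly6g6c* and 11 had one of *Lypd3*. Without the 16 cells that carried markers of another type, *Ly6g6c* was higher in Tom+ libraries by 3.36 ± 0.42 (adjusted p = 0.000195, edgeR) and with *Krt10* by 3.56 ± 0.42 (adjusted p = 4.14e-06), and *Lypd3* by 1.76 ± 0.39 (adjusted p = 0.0358) and 2.14 ± 0.43 (adjusted p = 0.00173).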

How the data were processed

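The authors prepared 5′ libraries by the STRT protocol on a Fluidigm C1, and the deposited tables hold UMI counts per gene and well, not normalized, for 96 wells in each of 4 libraries. Per the labels, reads were set on GRCm38 (mm10), and the counting strand, the treatment of reads shared between paralogs and the aligner version are not given in the sources used here. No column of another sample was present (0).

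Wells with under 2000 gene UMIs were left out (169 wells at 0 and 54 above it). For shares of cells and for classes, each cell was thinned to 2000 UMIs (seed 1). UMIs were summed over cells by library, or by library and *Krt10* class, and the sums went into edgeR 4.0.16 in R 4.3.3 (genes kept by filterByExpr, TMM scaling, quasi-likelihood F test, p-values adjusted after Benjamini and Hochberg, threshold 0.05). The SE given with an edgeR log2 fold change is its absolute value divided by the square root of F. *Krt10* was removed from the tested genes where it defined the classes. Shares were compared with exact permutation tests (Python 3.11.15), the order of cells was made with Scanpy 1.11.5, and DESeq2 1.42.0 served as an alternative. Levels are CPM of the summed UMIs, with 95% Poisson or exact binomial intervals (scipy 1.17.1) that cover counting error only. No doublet caller was run, and an alternative left out the 5% of cells with the most UMIs. Test scripts were also run on simulated data.

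The members, gene lists, *Krt10* classes and alternatives were chosen with earlier results of these data known. All members are named, then each other listed gene of the family with at least 20 UMIs, the basal and differentiation reference genes, and the 3 genes most like each member. The study's description gives a pair of mice for these cells, and no source used here says which library came from which. The 2 libraries of each group differed by more than sampling noise (chi-square per degree of freedom 2.37 and 2.30), so each was counted as 1 sample.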

Additional observations from a re-analysis of the deposited data

Results flagged for a closer look

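UMIs of 3 members were found in the 54 wells with fewer than 2000 gene UMIs, but not 0, which were used in no comparison, above the 3 counts that a count of 0 allows. *Ly6d* had 52 UMIs there (1730.1 CPM of the 30056 UMIs of these wells), *Ly6a* 5 (166 CPM) and *Ly6e* 6 (199.6 CPM). *Ly6g6c* had 3 and *Lypd3* 2, which is not above that limit.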

How the results depend on the processing

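*Ly6g6c* passed in 13 of 13 alternatives between Tom+ and Tom- libraries (log2 fold changes 3.31 to 4.21) and in 19 of 19 with *Krt10* (2.23 to 4.76), and *Lypd3* in 11 of 13 and 15 of 19 (edgeR or DESeq2, Benjamini-Hochberg). *Ly6a* passed in 0 of 13 (-1.68 to -0.82) and 0 of 11. Between the sorted groups, *Lypd3* was at 1.82 (adjusted p = 0.143) in cells with at least 5000 UMIs and at 1.72 to 2.15 with 1 library left out. With *Krt10*, *Lypd3* lost its call with cells from 1000 UMIs (1.17), at 1 *Krt10* UMI (1.06), with thinning seed 3 (1.53) and without Tom+ run 1 (1.99), with a range of 1.53 to 2.46 over libraries left out. *Ly6d* passed with *Krt10* at 1 *Krt10* UMI (0.94) and with thinning seed 2 (0.60), was at 0.02 at 15 *Krt10* UMIs, and lay between 0.34 and 0.66 with a library left out.

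With the run as a replicate block, *Ly6d* passed between the sorted groups (0.77, adjusted p = 0.000490, with 1 residual degree of freedom, so that the p rests on the spread shared across genes; 0.56 to 1.03 with a library left out and no block), and the genes called went from 38 to 116. The 4 libraries come from a pair of mice, but no source used here says which library came from which, so that whether the runs pair the libraries is not established, with 2 pairs and a correlation of their deviations of 0.131 over 3070 genes. The 38 genes became 8 with at least 5000 UMIs, 19 without cells of other types, and 27 to 65 with a library left out (65 without Tom- run 1). The 105 genes called with *Krt10* became 51 from 1000 UMIs, 28 from 5000, 48 with thinned counts, 49 in Tom+ libraries only, 19 at 1 *Krt10* UMI, 64 at 15, and 58 to 128 with a library left out (58 without Tom+ run 1). The 3 genes called among *Krt10*-negative cells became 0 from 1000 UMIs, from 5000 UMIs and with thinned counts, 5 without the 5% of cells with the most UMIs, 5 in cells without a *Krt10* UMI, 1 with the replicate block, and 3 to 4 with a library left out. The cause of these changes was not tested.

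Signs turned only for values that passed no test: *Cd59a* between the sorted groups (-0.0051 thinned, -0.21 without the 5% of cells with the most UMIs, -0.39 to 0.41 with a library left out), and, among *Krt10*-negative cells, *Ly6e* (0.012 from 1000 UMIs, 0.11 without the 5%, 0.065 without cells of other types, -0.17 to 0.10), *Ly6a* (-1.42 to 0.23) and *Ly6c1* (-1.53 to 0.54). The share of cells with *Ly6d* differed by 0 points in both comparisons at 5000 UMIs, where every cell held a UMI of it and no difference could show. With a library left out, the share differed by 0.123 to 11.8 and 6.67 to 11.4 points. Along the cell order, the first principal component gave -0.20 for *Ly6a*, 0.42 for *Ly6d*, -0.16 for *Ly6e* and 0.41 for *Ly6g6c*, and the number of differentiation genes gave -0.16 for *Ly6a*, 0.44 for *Ly6d* and 0.44 for *Ly6g6c*. With a library left out, *Ly6a* ranged from -0.04 to 0.10, *Ly6d* from -0.32 to 0.07, *Ly6e* from -0.062 to 0.15 and *Ly6g6c* from -0.10 to 0.40. Scaling genes to unit variance, and leaving out cells of other types from the shares, were chosen after seeing the data. *Ly6a* and *Ly6e* rest on 100 and 133 UMIs in all, which limits their precision.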
